A study of Mus musculus with 6 samples.

Results

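Zic1, Zic4, Zic2 and Zic5, which encode zinc-finger transcription factors, and Clybl, a gene that lies next to Zic5 and Zic2 on chromosome 14, are described here across 6 mouse embryos. They are 5 of the 37991 genes in the count tables, found by symbol, and all 5 were measured. They were chosen from their measured values in FGF2 and vehicle embryos, so the differences between those groups are given for these genes as a description, with no test. RNA had been sequenced from the dorsal telencephalon, from which the neocortex and hippocampus develop. The FGF2 group held 3 CD1 embryos that received 100 ng of FGF2, a growth factor acting through FGF receptors, into the ventricles of the brain. The vehicle group held 3 CD1 embryos that received PBS with 0.1% BSA by the same route. All 6 were E13.5 embryos with no engineered allele named in the labels, each gave 1 library from fixed coronal cryosections in front of the hippocampus, and the time between injection and collection is not given.

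Zic proteins bind DNA through zinc fingers related to those of the Gli factors, the effectors of Hedgehog signalling, and can act with or against them. In mammals the genes lie in divergent pairs, Zic1 with Zic4 and Zic2 with Zic5. In the developing mouse forebrain Zic1 and Zic2 are known from the dorsal midline, the cortical hem, the septum, the meninges and Cajal-Retzius cells, the early neurons of the cortical surface. In humans, loss of ZIC2 causes holoprosencephaly, a failure to divide the forebrain, and deletion of ZIC1 with ZIC4 is linked to Dandy-Walker malformation of the cerebellum. Clybl is unrelated to them and encodes a mitochondrial lyase that breaks down citramalyl-CoA.

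Promoters from RefSeq on build GRCm38.p6 are shown because genes of a cluster were higher together in FGF2 embryos, while the promoter windows printed here differ in composition. Each runs from 250 bases before the start of the gene in RefSeq to 50 bases after it. Bases are given 5′ to 3′ on the strand of the gene, and capitals mark CCAAT boxes. They lie at chr9:91365719-91366018 on the minus strand (Zic1), chr9:91368722-91369021 on the plus strand (Zic4), chr14:122465609-122465908 on the minus strand (Zic5) and chr14:122181444-122181743 on the plus strand (Clybl). The table matched 4 of the 5 genes and Zic2 is named only.
Zic1: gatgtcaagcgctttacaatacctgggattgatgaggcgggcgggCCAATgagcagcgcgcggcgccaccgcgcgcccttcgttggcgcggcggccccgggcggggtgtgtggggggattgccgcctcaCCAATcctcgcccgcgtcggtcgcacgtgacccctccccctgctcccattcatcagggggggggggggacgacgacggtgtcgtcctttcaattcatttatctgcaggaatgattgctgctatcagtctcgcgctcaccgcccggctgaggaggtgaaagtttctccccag
Zic4: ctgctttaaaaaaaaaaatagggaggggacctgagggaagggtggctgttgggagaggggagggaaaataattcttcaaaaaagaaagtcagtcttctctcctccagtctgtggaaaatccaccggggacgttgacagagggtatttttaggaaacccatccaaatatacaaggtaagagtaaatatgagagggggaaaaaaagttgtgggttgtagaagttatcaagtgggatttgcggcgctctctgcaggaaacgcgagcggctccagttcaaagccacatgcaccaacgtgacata
Zic5: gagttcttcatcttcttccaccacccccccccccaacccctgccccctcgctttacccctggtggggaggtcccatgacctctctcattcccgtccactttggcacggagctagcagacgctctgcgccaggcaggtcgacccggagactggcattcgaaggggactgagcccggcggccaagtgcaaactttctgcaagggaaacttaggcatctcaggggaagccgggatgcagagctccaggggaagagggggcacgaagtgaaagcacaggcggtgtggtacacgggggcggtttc
Clybl: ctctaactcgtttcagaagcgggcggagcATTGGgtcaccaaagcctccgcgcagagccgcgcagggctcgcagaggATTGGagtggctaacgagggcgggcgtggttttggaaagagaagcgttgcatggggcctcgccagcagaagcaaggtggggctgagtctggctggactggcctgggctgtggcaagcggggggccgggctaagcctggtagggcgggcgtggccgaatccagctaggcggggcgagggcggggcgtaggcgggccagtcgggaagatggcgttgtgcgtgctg

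The Zic1 and Zic4 windows printed here are unlike each other. In RefSeq these genes start apart and their windows share no bases, whereas their spans in the count files overlap by 3398 bases at their starts. Both windows therefore cannot lie at the starts of the counted spans, and a gene may have other starts that are not shown. Zic1 has 31 CpG dinucleotides and a GC content of 65.3%, and 89.4% of the 32851 promoters in the table have fewer CpG. Zic4 has 8 CpG and a GC content of 46%, close to the medians of all promoters, 7 CpG and 52.7%. The Clybl promoter, with 26 CpG and 67.3% GC, resembles that of Zic1 in composition, and the Zic5 promoter has 15 CpG and 62.7% GC. The CCAAT box, searched on both strands, occurs in 37.4% of all promoters. Zic1 has it on the strand of the gene at -205 and -121, counted as the position of the first base relative to the start, and Clybl has it on the opposite strand at -221 and -173. Zic4 and Zic5 have none. None of the 4 windows holds the letters TATAAA (in 13.6% of all promoters), the Gli-type site GACCACCCA (0.253%), the ETS-type site CCGGAAG (8.86%), the TCF/LEF-type site ATCAAAG (3.73%) or CAGCAGG, a motif like that bound by Zic proteins (10.5%), on either strand.

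Libraries held 64631136 to 81532334 counts over genes in the FGF2 embryos and 61489462 to 68101511 in the vehicle embryos. A count here is the number of alignments over the whole span of a gene, introns included. In vehicle 9 all non-zero counts were even, against 51% to 51.9% in the other libraries, and its total was 32112664 when halved. Reads of Y-linked genes numbered 12277 to 16232 per FGF2 embryo and 10475 in vehicle 7, but 22 in each of vehicle 8 and vehicle 9, so the groups also differ in the sex of the embryos. Levels are given as the authors' RPKM, which scales reads for gene length and behaves as a measure over exons, and as CPM, counts scaled to the size of the library, over the whole span.

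Zic1 was the most abundant of the 5 genes, and Zic4 stood farther above its vehicle level than Zic1 did. Zic1 (ENSMUSG00000032368, chr9:91252896-91260648, NCBIM37) is a regulator of neural progenitors and of dorsal neural fate. Its level was 59.0, 47.2 and 51.0 RPKM in FGF2 6, 7 and 8, against 22.5, 19.2 and 20.5 RPKM in vehicle 7, 8 and 9. The groups did not overlap, and the lowest FGF2 embryo stood 2.10-fold above the highest vehicle embryo. The means were 52.4 ± 5.99 RPKM in FGF2 embryos and 20.8 ± 1.66 RPKM in vehicle embryos (SD, n = 3 each), and the fitted log2 fold change of the counts was 1.29 ± 0.10 (SE). Zic4 (ENSMUSG00000036972, chr9:91257251-91284186, NCBIM37) lies on the opposite strand beside it, and its joint loss with Zic1 affects the cerebellum. It stood at 11.7, 10.9 and 10.8 RPKM in the FGF2 embryos, against 2.42, 2.38 and 1.50 RPKM in the vehicle embryos. Among the 5 genes Zic4 had the tightest FGF2 values in RPKM, the highest being 1.08 times the lowest, and vehicle 9 was its lowest embryo. Its mean was 11.1 ± 0.494 RPKM in FGF2 embryos and 2.10 ± 0.516 RPKM in vehicle embryos (SD, n = 3 each), a ratio of 5.30.

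The spans of Zic1 and Zic4 share 3398 bases, and no source says if the counting kept strands apart, so their counts are not separate measurements. Zic1 had 26303, 17873 and 17743 reads in FGF2 embryos and 7539, 7152 and 7140 in vehicle embryos. Zic4 had 20903, 15119 and 13626 reads in FGF2 embryos and 4564, 4757 and 3726 in vehicle embryos. On the span counts the ratio of mean CPM was 2.45 for Zic1 and 3.29 for Zic4, and the log2 fold change of Zic4 was 1.72 ± 0.11 (SE). The exon models of the pair in GENCODE M21 (build GRCm38) overlap by 60 bases only. On RPKM the ratio was 2.53 for Zic1, close to that on the counts, and for Zic4 it was 5.30, larger than on the counts.

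**Figure D1:**
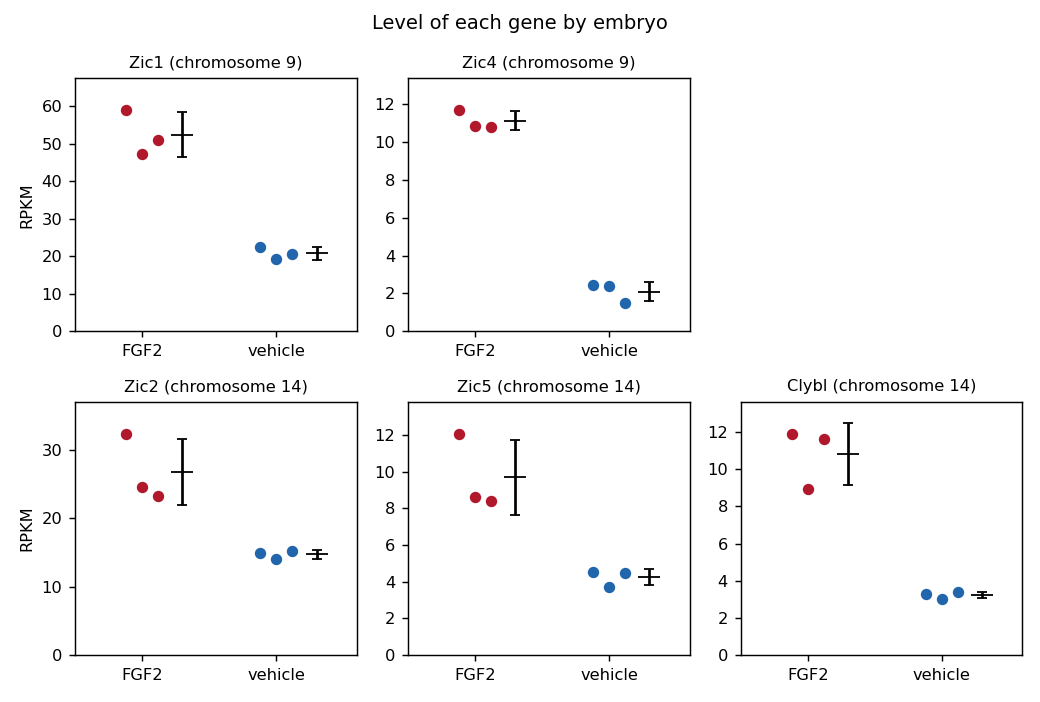
Level in RPKM (vertical axes, each starting at 0 with its own scale) of Zic1, Zic4, Zic2, Zic5 and Clybl in 3 FGF2 embryos (red points, 6, 7 and 8 in order) and 3 vehicle embryos (blue points, 7, 8 and 9 in order), with the mean and SD of each group beside the points. The groups do not overlap in any panel, and FGF2 6 is the highest embryo in each.

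On chromosome 14, Zic2, Zic5 and Clybl stood higher in every FGF2 embryo than in any vehicle embryo, Zic2 by the least and Clybl by the most on the counts. Zic2 (ENSMUSG00000061524, chr14:122874604-122879074, NCBIM37) is the member whose loss impairs forebrain midline formation. It stood at 32.4, 24.7 and 23.3 RPKM in FGF2 6, 7 and 8, against 14.9, 14.1 and 15.3 RPKM in vehicle 7, 8 and 9. FGF2 6 lay apart from the other FGF2 embryos, and the gap between the groups was the smallest of the 5 genes, with the lowest FGF2 embryo 1.53-fold above the highest vehicle embryo. The means were 26.8 ± 4.90 RPKM in FGF2 embryos and 14.7 ± 0.617 RPKM in vehicle embryos (SD, n = 3 each). The log2 fold change of the counts was 0.83 ± 0.12 (SE).

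Zic5 (ENSMUSG00000041703, chr14:122856017-122864899, NCBIM37), which in mouse is needed for neural crest and neural tube closure, starts 9704 bases before Zic2 on the other strand. It stood at 12.1, 8.62 and 8.43 RPKM in the FGF2 embryos, against 4.53, 3.72 and 4.49 RPKM in the vehicle embryos. Here too FGF2 6 was higher than the other FGF2 embryos, which stood close together. The means were 9.71 ± 2.06 RPKM in FGF2 embryos and 4.25 ± 0.455 RPKM in vehicle embryos (SD, n = 3 each), with a log2 fold change of the counts of 1.15 ± 0.16 (SE).

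Clybl (ENSMUSG00000025545, chr14:122580916-122801454, NCBIM37) is a long gene that ends 54562 bases before Zic5. Its level was 11.9, 8.92 and 11.7 RPKM in FGF2 embryos, against 3.31, 3.03 and 3.37 RPKM in vehicle embryos, a ratio of means of 3.35. The vehicle embryos were close to each other, and FGF2 7 was the lowest FGF2 embryo. Over its whole span it had 4778, 2851 and 2636 reads in FGF2 embryos and 518, 656 and 564 reads in vehicle embryos. That is 56.8, 40.2 and 41.0 CPM in FGF2 embryos, against 8.47, 9.81 and 8.95 CPM in vehicle embryos, a ratio of means of 5.07 and a log2 fold change of 2.34 ± 0.16 (SE). The ratio was larger on the span counts than in RPKM, the reverse of Zic4. Exons of Clybl in GENCODE M21 make up 1444 bases of a span of 220539 bases in the files. Almost all bases of the span are listed as covered in each embryo, which for 518 reads in vehicle 7 comes to 425.6 bases a read, so that column appears to count the introns skipped by spliced alignments and gives no measure of intron reads.

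All 5 genes passed the filter on low counts, and all 5 are among the genes called higher in the FGF2 embryos with edgeR's quasi-likelihood test at an adjusted p of 0.05. Over the 21983 genes tested, 799 (3.63%) were called, 590 (2.68%) higher and 209 (0.951%) lower. The groups did not overlap in 5 of 5 genes, against 28.2% of all genes tested. The genes were picked on this comparison, so nothing is read from either count. The median log2 fold change of all genes tested was 0.01, and the 90th percentile was 0.68. Ranked from the largest log2 fold change, Clybl was number 259, Zic4 463, Zic1 762, Zic5 949 and Zic2 1654.

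The balance within and between the clusters differed between the groups. The ratio of Zic4 to Zic1 in RPKM was 0.198, 0.230 and 0.212 in FGF2 6, 7 and 8, against 0.107, 0.124 and 0.0733 in vehicle 7, 8 and 9. All FGF2 embryos were above all vehicle embryos, and the mean ratio in FGF2 embryos was 2.11 times that in vehicle embryos. On span reads, which the genes partly share, the mean ratio of Zic4 to Zic1 was 0.803 in FGF2 embryos and 0.597 in vehicle embryos, a shift of 1.34 times. Zic5 to Zic2 was 0.373, 0.349 and 0.361 in FGF2 embryos, against 0.304, 0.265 and 0.294 in vehicle embryos, a smaller shift of 1.26 times. In each pair, therefore, the less abundant gene took a larger share in the FGF2 embryos. Zic2 to Zic1 was 0.550, 0.523 and 0.457 in FGF2 embryos, against 0.661, 0.731 and 0.745 in vehicle embryos.

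Summed over each pair, Zic1 and Zic4 had 70.7, 58.1 and 61.8 RPKM in FGF2 embryos and 24.9, 21.6 and 22.01 RPKM in vehicle embryos. Zic2 and Zic5 had 44.5, 33.3 and 31.8 RPKM in FGF2 embryos and 19.4, 17.8 and 19.8 RPKM in vehicle embryos. The chromosome 9 sum over the chromosome 14 sum was 1.59, 1.74 and 1.95 in FGF2 embryos, against 1.28, 1.21 and 1.11 in vehicle embryos. Clybl to Zic2 was 0.368, 0.361 and 0.500 in FGF2 embryos, against 0.222, 0.216 and 0.220 in vehicle embryos, so Clybl did not keep a fixed proportion to its neighbour. The mean ratio shifted 1.87 times in RPKM and 2.83 times on span reads. With 3 embryos a group an exact permutation test cannot give a two-sided p below 0.1, and these ratios come from genes chosen on the same comparison, so none was tested.

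**Figure D2:**
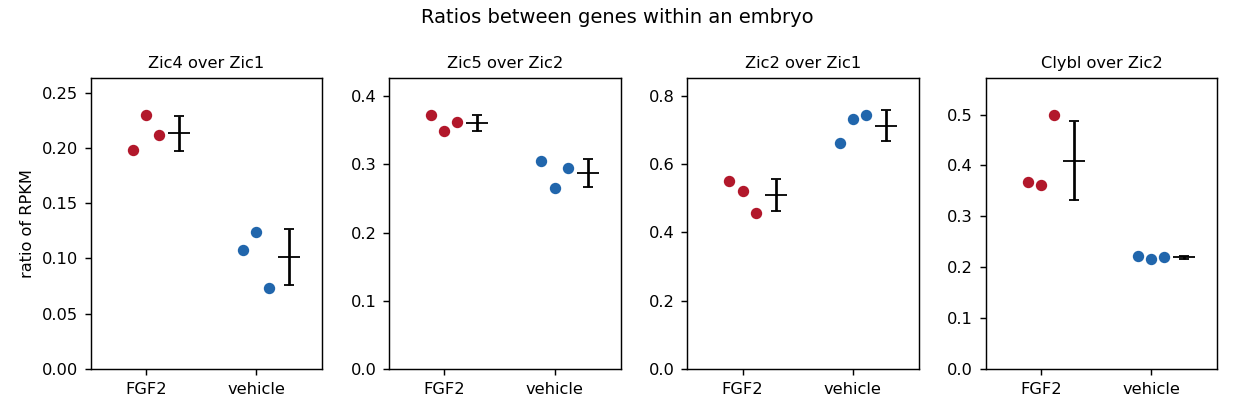
Ratio of RPKM of Zic4 to Zic1, Zic5 to Zic2, Zic2 to Zic1 and Clybl to Zic2 (vertical axes from 0) in 3 FGF2 embryos (red, 6, 7 and 8 in order) and 3 vehicle embryos (blue, 7, 8 and 9 in order), with the mean and SD of each group. The FGF2 embryos lie above the vehicle embryos for Zic4 to Zic1, Zic5 to Zic2 and Clybl to Zic2, and below them for Zic2 to Zic1.

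Per length of gene model, Zic1 was above Zic2, and Zic2 above the rest, in each embryo of either group. In FGF2 embryos Zic4, Clybl and Zic5 came next, at means of 11.1, 10.8 and 9.71 RPKM, and their embryos overlapped. In vehicle embryos Zic5 at 4.25 RPKM stood above Clybl at 3.24 RPKM and Zic4 at 2.10 RPKM, with no overlap between neighbours in that order. Zic4 was thus the lowest of the 5 genes in vehicle embryos and was not separated from Clybl and Zic5 in FGF2 embryos.

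With embryo sex as a covariate the log2 fold change was 1.18 for Zic1, 1.59 for Zic4, 0.81 for Zic2, 1.06 for Zic5 and 2.44 for Clybl. In that fit 5 genes were called in all, and vehicle 7 is the only vehicle embryo with Y-linked reads. Vehicle 7 had the highest RPKM of the vehicle embryos for Zic1, Zic4 and Zic5, each by a small margin over the next embryo. It stood at 2.42 RPKM for Zic4, against 2.38 in vehicle 8 and 1.50 in vehicle 9. For Zic5 it stood at 4.53 RPKM, against 3.72 in vehicle 8 and 4.49 in vehicle 9. For Zic2 and Clybl it lay between vehicle 8 and vehicle 9. A part of embryo sex in the size of these differences was not tested beyond that fit.

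Around Zic2 and Zic5 some genes stood higher in FGF2 embryos and most did not pass the test. Of 19 other listed genes within 500 kb of the Clybl, Zic5 and Zic2 stretch, 17 were tested, 2 were higher, 0 were lower, and the median log2 fold change was 0.02. At an unadjusted p of 0.05 edgeR had 4 of them higher and 1 lower, and DESeq2 called 3 higher and 0 lower. 2610035F20Rik, a processed transcript of unknown function in GENCODE M21, lies between Zic5 and Zic2 (chr14:122869506-122874421, NCBIM37) and ends 182 bases before the first base of Zic2. GENCODE M21 puts it on the minus strand, opposite to Zic2. It stood at 20.1, 16.6 and 15.2 CPM in FGF2 embryos, against 4.02, 4.74 and 3.27 CPM in vehicle embryos, and rose by 2.11 ± 0.18 (SE) on the log2 scale (edgeR adjusted p = 0.00176). Its groups did not overlap, and its log2 fold change exceeded those of Zic5 and Zic2 on either side, a difference that was not tested. The call held without each single embryo, at 1.98 to 2.25, and was lost with embryo sex as a covariate (2.11, adjusted p = 0.0964).

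AC154683.1, the other gene called higher, is 107 bases long and lies inside the span of Clybl, so its reads cannot be separated from those of Clybl. Gm5089, between Clybl and Zic5, was at 5.73, 4.44 and 3.48 CPM in FGF2 embryos and 4.11, 3.44 and 3.84 CPM in vehicle embryos. These overlapped, and its log2 fold change of 0.26 ± 0.22 (SE) was not called (edgeR adjusted p = 0.554). Outside the stretch, Tm9sf2, which ends 22089 bases before Clybl, differed by -0.04 ± 0.13 (adjusted p = 0.884), and Pcca, a subunit of mitochondrial propionyl-CoA carboxylase that starts 54471 bases after Zic2, by 0.05 ± 0.10 (adjusted p = 0.830). Farther away Dock9, an activator of the GTPase Cdc42, differed by 0.38 ± 0.11 (adjusted p = 0.121), Ubac2 by -0.12 and Tmtc4 by -0.01 on the log2 scale, and edgeR called none of them. DESeq2 called Dock9 higher (log2 fold change of 0.37, adjusted p = 0.033). Near Zic1 and Zic4 the files list 2 other genes within 500 kb, of which Gm5620 was tested and not called. It stood at 3.13, 3.24 and 2.83 CPM in FGF2 embryos and 3.30, 3.55 and 0.0317 CPM in vehicle embryos, with vehicle 9 alone far below the rest.

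**Figure D3:**
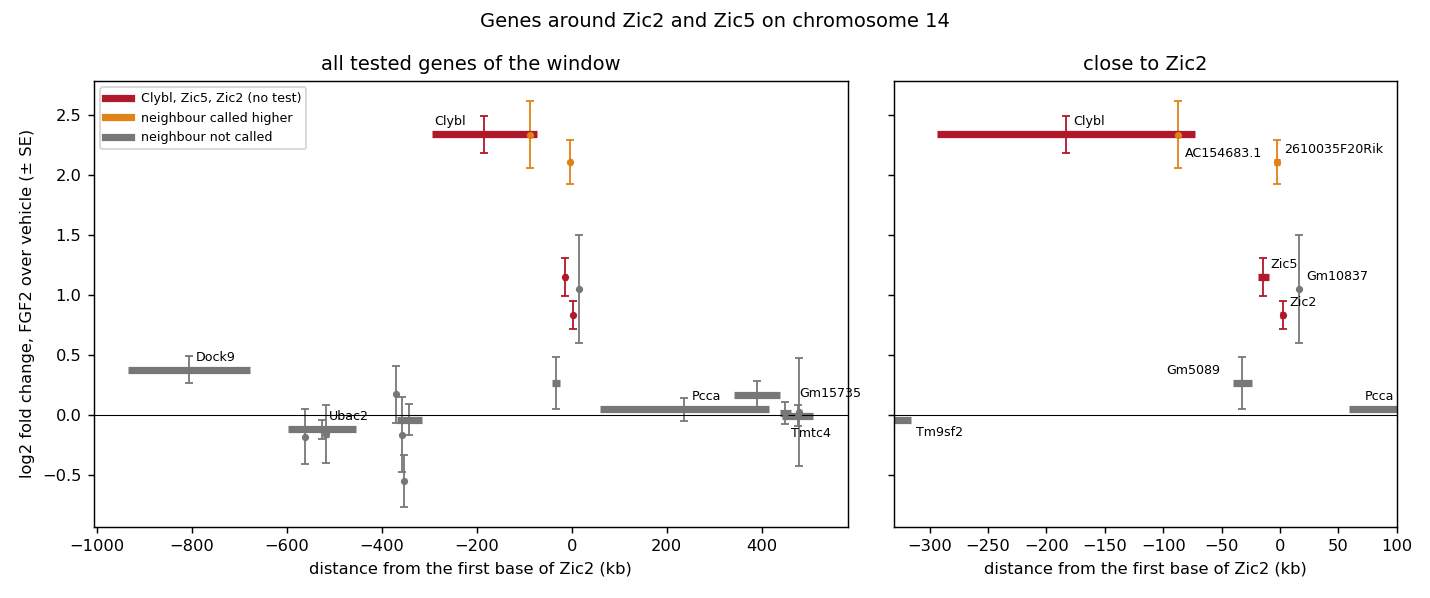
Log2 fold change of FGF2 over vehicle with its SE (vertical axis) of each tested gene around Zic2 and Zic5, against distance in kb from the first base of Zic2 (horizontal axis), in the whole window (left) and near Zic2 (right). Horizontal bars span the gene, red for Clybl, Zic5 and Zic2, orange for neighbours called higher and grey for neighbours not called. Clybl, AC154683.1, 2610035F20Rik, Zic5 and Zic2 lie at 0.83 or above, Gm10837 at 1.05 with a wide SE was not called, and the other genes lie between -0.55 and 0.38.

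By Pearson correlation of log2 CPM over the 6 embryos, among 13680 genes other than the 5 described here, the genes most like Zic1 were Tead4 (r = 0.998), Copg2, Nsmce2, Zfhx3 and Lxn (each r = 0.996). Most like Zic2 were Mdk (r = 0.9996), Mir5105 (r = 0.995), Osbpl3 (r = 0.995), Lgi4 (r = 0.994) and Osr2 (r = 0.992). All points share the division into FGF2 and vehicle embryos, so such values mostly describe that division. Likeness in pattern is not likeness in size. Mdk, a secreted growth factor, stood at 541, 503 and 499.7 CPM in FGF2 embryos and 443, 434 and 443 CPM in vehicle embryos, a log2 fold change of 0.23 ± 0.08 (SE). Zfhx3, a zinc-finger and homeobox factor, stood at 162, 143 and 139 CPM in FGF2 embryos and 81.8, 74.5 and 77.5 CPM in vehicle embryos, a log2 fold change of 0.93 ± 0.09 (SE). Among the 5 genes themselves r ran from 0.960 (Zic4 with Zic5) to 0.997 (Zic2 with Zic5), over the same 6 embryos.

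Of 15 partners and reported targets of Zic proteins, 14 were tested, 5 rose and 0 fell, with a median log2 fold change of 0.57. Gli1, a Hedgehog effector and target, stood at 22.3, 22.5 and 12.5 CPM in FGF2 embryos, against 1.72, 1.96 and 1.24 CPM in vehicle embryos, and rose by 3.54 ± 0.29 (SE) on the log2 scale (edgeR adjusted p = 0.00158). The related Gli2 and Gli3 were not called, at -0.20 (adjusted p = 0.487) and -0.31 (adjusted p = 0.481). Ephb1, an axon guidance receptor driven by Zic2 in the retina of the mouse, stood at 41.4, 48.0 and 50.2 CPM in FGF2 embryos, against 16.0, 14.8 and 12.3 CPM in vehicle embryos, and rose by 1.69 ± 0.13 (SE, adjusted p = 0.00135). Pax3, a neural crest and dorsal neural tube gene, rose by 3.71 (adjusted p = 0.00740) but reached 3.55 CPM at most. The spans of Gli1 and Ephb1 overlap those of other genes, with which they share reads. With embryo sex as a covariate these calls were lost, at an adjusted p of 0.0859 for Gli1, 0.0622 for Ephb1 and 0.142 for Pax3.

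Tcf7l2, a Wnt effector, rose by 2.01 (adjusted p = 0.0366) and Apoe, a lipid carrier, by 0.66 (adjusted p = 0.0354). Tcf7l2 was lost without FGF2 6, FGF2 8 or any single vehicle embryo (adjusted p up to 0.138). Apoe was lost without FGF2 6, FGF2 7 or any single vehicle embryo (adjusted p up to 0.172). With embryo sex as a covariate the adjusted p was 0.428 for Tcf7l2 and 0.517 for Apoe. Mdfi, a regulator that binds Zic proteins, stood at 0.47 ± 0.11 (SE, adjusted p = 0.0695), and Ctnnb1 at -0.13 (adjusted p = 0.568). Atoh1, reported to be repressed by Zic1, had 2 reads in FGF2 7 and 0 in the other embryos.

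Markers of regions in which Zic genes are known to be expressed also differed, and in bulk tissue more cells of a type and more RNA per cell cannot be told apart. Of 8 septum and rostral midline markers 6 rose, 0 fell and the median log2 fold change was 4.05, with summed levels of 185 to 302 CPM in FGF2 embryos and 15.6 to 24.8 CPM in vehicle embryos. Fgf15, a growth factor of the rostral midline, rose by 3.69 ± 0.25 (SE, edgeR adjusted p = 0.00128). Of 15 hem and roof plate markers tested 8 rose and 0 fell, with a median of 0.98 and sums of 171 to 342 CPM in FGF2 embryos and 129 to 141 CPM in vehicle embryos. Rspo2, a Wnt agonist of the hem, rose by 4.81 ± 0.38 (SE, adjusted p = 0.00158), while Msx1 stood at 0.15 (adjusted p = 0.808). Of 8 Cajal-Retzius cell markers 4 rose and 0 fell, with a median of 0.70 and overlapping sums of 245 to 326 CPM in FGF2 embryos and 212 to 256 CPM in vehicle embryos. Those that rose were Ebf3 by 0.95 (edgeR adjusted p = 0.00907), Lhx1 by 1.55 (0.0112), Trp73 by 0.94 (0.0289) and Lhx5 by 1.22 (0.0412). Each of these calls was lost without vehicle 8. Reln, the defining gene of these cells, stood at -0.19 (adjusted p = 0.588) and overlapped between the groups. Without FGF2 8, however, Reln was called lower.

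Meninges, a tissue with strong Zic expression, gave another picture. Of 12 markers 1 rose and 2 fell, the median was 0.05, and the sums were 2249 to 2526 CPM in FGF2 embryos and 3587 to 4121 CPM in vehicle embryos. Col1a1, a collagen chain, stood at 886, 937 and 974 CPM in FGF2 embryos, against 1815, 1657 and 1808 CPM in vehicle embryos, and fell by 0.92 ± 0.09 on the log2 scale (SE, adjusted p = 0.00276). The marker that rose was Foxd1, by 1.13 ± 0.24 (SE, edgeR adjusted p = 0.0458). That call was lost without FGF2 6, FGF2 7 or any single vehicle embryo (adjusted p up to 0.196). Foxc1, a transcription factor that defines meningeal cells, stood at 0.07 (adjusted p = 0.825). At an unadjusted p of 0.05 edgeR had 3 meninges markers higher and 3 lower, and DESeq2 called 3 higher and 3 lower. The lower sum came from the collagens Col1a1, Col1a2 and Col3a1. The other 9 markers summed to 284, 268 and 215 CPM in FGF2 embryos and 235, 216 and 253 CPM in vehicle embryos, and these overlapped.

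Other regional lists differed as well. Of 12 ventral telencephalon markers 9 rose and 0 fell, with a median of 2.90 and sums of 587 to 807 CPM in FGF2 embryos and 70.6 to 184 CPM in vehicle embryos, where Gsx1 had no read. The vehicle embryos differed among themselves in some of these genes. Dlx1, which was not called, stood at 52.3, 45.8 and 12.8 CPM in vehicle 7, 8 and 9, whereas Isl1 stood at 0.409, 0.479 and 0.317 CPM. Of 11 diencephalon and midbrain markers tested 5 rose and 0 fell, with a median of 1.14 and sums of 148 to 244 CPM in FGF2 embryos and 63.3 to 72.1 CPM in vehicle embryos. Of 8 choroid plexus markers 6 rose and 1 fell, with a median of 5.80 and sums of 175 to 483 CPM in FGF2 embryos and 21.8 to 24.1 CPM in vehicle embryos. Ttr alone stood at 59.1, 126 and 392 CPM in FGF2 6, 7 and 8, and varied most in the sum. The marker that fell was Aqp1, by 1.14 (edgeR adjusted p = 0.0492). That call was lost without FGF2 7 or any single vehicle embryo. Of 5 eye and optic stalk markers tested 0 passed in either direction by edgeR, with a median of 0.77 and sums of 8.32 to 13.0 CPM in FGF2 embryos and 5.36 to 6.35 CPM in vehicle embryos, where Rax had no read. At an unadjusted p of 0.05 edgeR had 2 of these higher and 0 lower, as DESeq2 called them. The dorsal telencephalon markers that define the labelled tissue were abundant in all embryos, and of 8 of them 0 rose and 4 fell, with a median of -0.62 and sums of 1694 to 1736 CPM in FGF2 embryos and 2394 to 2559 CPM in vehicle embryos. Emx1, a cortical patterning factor, stood at 96.0, 96.7 and 109 CPM in FGF2 embryos, against 186, 185 and 182 CPM in vehicle embryos, and fell by 0.88 ± 0.08 (SE, adjusted p = 0.00188). With embryo sex as a covariate Isl1 and Clic6 were the only genes of these lists still called. For each list with 0 genes lower here, and for the partners above, 0 were lower at an unadjusted p of 0.05 or called lower by DESeq2 or by limma on RPKM, and 0 dorsal telencephalon markers were higher in those. Fits without an embryo are not covered by this, and without FGF2 8 Reln of the Cajal-Retzius list was called lower. Some genes are shared between lists, among them Nkx2-1 (septum and ventral telencephalon), Otx2 (diencephalon and choroid plexus) and Msx1 (partners and hem). The lists are therefore not separate measurements. With each gene counted once, over all the lists 42 genes were higher and 7 lower, against 22 and 3 without vehicle 7, 20 and 4 without vehicle 8, and 3 lower without vehicle 9, 4 without FGF2 7 and 11 without FGF2 8. The part of any of these tissues in the Zic and Clybl values was not tested.

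**Figure D4:**
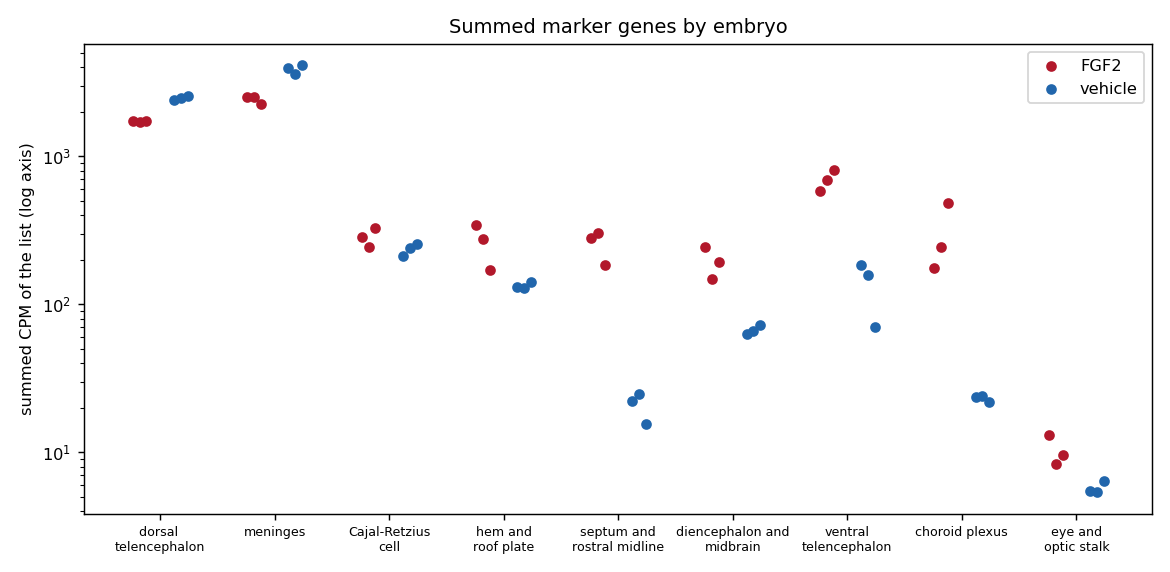
Summed CPM of each marker list (log axis) in 3 FGF2 embryos (red, 6, 7 and 8 in order) and 3 vehicle embryos (blue, 7, 8 and 9 in order). Some genes are shared between lists. FGF2 embryos are lower for dorsal telencephalon and for meninges, where the collagens Col1a1, Col1a2 and Col3a1 carry the difference, overlap vehicle embryos for Cajal-Retzius cells and are higher for the other lists.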

How the data were processed

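RNA-seq libraries of 6 embryos, 3 injected with FGF2 and 3 with vehicle, were grouped by their labels. The genome build was NCBIM37 (mm9), and the tools named are TopHat2 2.0.9, Bowtie2 2.1.0.0, bedtools 2.12.0 and CASAVA 1.8, without their roles, per the submitters' processing notes. Strand use in counting is not given there. The deposited count files contain alignments over the span of each of 37991 genes, introns included, so overlapping genes share reads, and a covered fraction that was not used as a measure of expression. The authors' RPKM files give RPKM by symbol, joined to 34290 genes, with the tool not given. Starts in the count files count from 0 and were raised by 1.

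The unaltered counts went into edgeR 4.0.16 (R 4.3.3) with filterByExpr, TMM and the robust quasi-likelihood test, over all 6 embryos, with Benjamini-Hochberg adjustment over 21983 genes and a threshold of 0.05. Log2 fold changes are FGF2 over vehicle. DESeq2 1.42.0 and limma 3.58.1 on log2(RPKM + 1) or log2(RPKM + 0.1) served as alternatives, beside other scalings, filters and left-out embryos. Scripts were tested on simulated data. Nothing in the labels says that the embryos came from separate litters, so p-values measure the spread between these embryos. The 5 genes and the lists were chosen with earlier results of these data known. Beside the 5 genes the text names genes within 500 kb of a cluster with a mean of at least 1 CPM, the 5 most correlated genes for Zic1 and for Zic2, and from each list up to 4 called genes by smallest p and the 2 most abundant others. Gli2, Mdfi, Tcf7l2, Atoh1, Foxc1, Rax, Gm10837 and AC154683.1 fall outside that rule and were named after their values were seen. A gene that the rule also names is not reported here. RefSeq promoters came from GRCm38.p6 and are not joined to the coordinates of the files.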

Additional observations from a re-analysis of the deposited data

How the results depend on the processing

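The 799 genes called became 5 with embryo sex as a covariate (4 higher and 1 lower), 2145 with DESeq2 (1344 higher and 801 lower), 446 on log2(RPKM + 1) (327 and 119), 440 on log2(RPKM + 0.1) (328 and 112) and 324 on log2(RPKM + 1) with no filter (270 and 54). Leaving out each embryo gave 218 to 1943 genes, 181 to 964 higher and 37 to 979 lower, with 517 genes without FGF2 6, 405 without FGF2 7, 1943 without FGF2 8, 242 without vehicle 7, 218 without vehicle 8 and 307 without vehicle 9. The share of higher calls was 73.8%, and it was 49.6% without FGF2 8, 62.7% with DESeq2 and 84.3% without vehicle 7. With the replicate block 703 genes were called, 557 of them higher. Its group effect rests on the embryos numbered 7 and 8, as FGF2 6 and vehicle 9 have no embryo of the same number in the other group. Embryos with the same number did not deviate together (r = -0.041 and -0.039). With so few embryos this check cannot exclude pairing, and the labels state none. Over the same 16 alternatives Zic1, Zic2 and Zic5 moved by less than the spread between embryos. Zic4, at 1.72, was 1.54 with the replicate block, 1.98 on log2(RPKM + 1) with or without the filter and 2.38 on log2(RPKM + 0.1). Clybl, at 2.34, was 1.47 on log2(RPKM + 1), with or without the filter, and 1.70 on log2(RPKM + 0.1). The cause was tested for neither gene. Without each embryo Zic1 ran from 1.20 to 1.36, Zic4 from 1.62 to 1.78, Zic2 from 0.69 to 0.91, Zic5 from 0.96 to 1.24 and Clybl from 2.16 to 2.43. Of the genes in the lists 42 were called higher and 7 lower, with 20 to 43 and 3 to 11 when each embryo was left out, 2 and 0 with embryo sex as a covariate, and 21 and 3 on log2(RPKM + 1) with no filter. Neighbours called higher were 2, with 0 under embryo sex and 1 in each RPKM fit. Mir5105 reversed to -0.11 in all 3 RPKM fits. It stood at 42.4, 32.0 and 34.8 RPKM in FGF2 6, 7 and 8, and at 26.3, 21.7 and 103 RPKM in vehicle 7, 8 and 9. Vehicle 9 alone was far above the rest in RPKM, at 9.84 CPM on the counts, and the cause was not tested. The reads carry no molecular identifiers. If the even counts of vehicle 9 reflect doubling, they overstate its depth. With these counts halved 823 genes were called, 604 higher and 219 lower.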
